A study of Mus musculus with 16 samples.

Results

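The chromatin of 10 genes of neutrophil host defense was followed in mouse hematopoietic progenitors. They were chosen by name. *Mpo*, *Elane*, *Prtn3* and *Ctsg* form the primary set of 4 genes, and *Ltf*, *Camp*, *Ngp*, *Lcn2*, *S100a8* and *S100a9* form the later set of 6. All 10 were found among 21755 protein-coding genes of GENCODE release M21 on chromosomes 1 to 19 and X. A peak belonged to a gene when it overlapped the 50 kb to either side of the gene's annotated 5′ end (mm10). This gave 132 regions out of 90549 in the series, 69 near a primary gene and 63 near a later gene.

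Neutrophils make their granules in order as they mature. Promyelocytes fill the primary (azurophil) granules with myeloperoxidase and the serine proteases neutrophil elastase, proteinase 3 and cathepsin G. Lactoferrin, the cathelicidin, neutrophilic granule protein and lipocalin 2 are made later, for the specific granules. S100A8 and S100A9, which pair as calprotectin, are abundant late products too, but they are cytosolic proteins. C/EBP factors, PU.1, RUNX1 and GFI1 are known regulators of this program, and GATA2 is a factor of the earlier stem and progenitor stages.

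ATAC-Seq, in which a transposase cuts open chromatin and tags it for sequencing, was represented by 16 peak lists in 4 groups of 4. All cells were fetal liver progenitors immortalized with HoxB8 and grown in β-estradiol, infected with a GFP retrovirus for 3 d, and sorted for GFP, with 50000 cells per library. Cells with the intact *Gata2* -77 enhancer received the empty virus (hi-77+/+ empty). Cells homozygous for loss of that enhancer received the empty virus (hi-77-/- empty), a virus for GATA2 (hi-77-/- GATA2), or a virus for 9aa-Ins, a GATA2 disease variant with residues inserted between its zinc fingers (hi-77-/- 9aa-Ins). GATA2 and its variant were therefore driven by a retrovirus and not by the *Gata2* locus, and the wild-type and deleted cells were different lines, so genotype and cell line cannot be told apart. Whether a line was 1 clone is not given in the sources used here. Below, loss of the enhancer and the deletion are names for the comparison of hi-77-/- empty with hi-77+/+ empty, which includes any other difference between the lines. The remaining comparisons address what GATA2 and the variant each did in cells that lacked the enhancer.

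The lists held 49852 to 111743 peaks each on chromosomes 1 to 19 and X, with median widths of 144 to 208 bp. Read totals were not in the lists, so depth is unknown. The 49000 most significant peaks of each list were used, and peaks were compared by their rank within the library, where rank 1 is the most significant. The -log10 p of peak 49000 was 8.75 to 11.7 in hi-77-/- 9aa-Ins and 5.35 to 7.43 in hi-77-/- GATA2, and its part in the results was not tested. The 5′ ends of progenitor genes (*Kit*, *Cd34*, *Ptprc*, *Spi1*, *Cebpa* and *Runx1*) held a peak in every library for 5 of 6 genes in hi-77+/+ empty and for 6 of 6 in each other group. T cell and hepatocyte 5′ ends held no peak in any library (0 of 3 genes in each list), and erythroid 5′ ends held a peak in every library of a group for 0 or 1 of 4 genes. B-lineage 5′ ends did so for 2 or 3 of 4 genes and mast cell and basophil 5′ ends for 1 or 2 of 4, depending on the group. In all libraries 46.9% to 49.4% of protein-coding 5′ ends had a peak within 500 bp.

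Sequences at the genes' starts are given first. RefSeq promoters (GRCm38.p6, 250 bases before to 50 after the start) were found for all 10 genes, and all 10 equalled the genome sequence at those coordinates. The 4 primary promoters are shown with those of *Camp* and *Lcn2*, the later genes whose 5′ end was past the threshold in a comparison. The windows follow the RefSeq start, which is the tested 5′ end for *Ctsg* and lies downstream of it for *Mpo*, *Elane*, *Camp* and *Lcn2*. The *Lcn2* window lies wholly downstream of its annotated 5′ end. The *Prtn3* window is at the coding start, outside the stretch that was tested. Capitals mark matches, on either strand, to GATA (those letters after A or T and before A or G), C/EBP (TTGCNNAA), ETS (GAGGAAGT, a word of the type bound by PU.1) and RUNX (TGTGGT).
Mpo, chr11:87793534-87793833, plus strand: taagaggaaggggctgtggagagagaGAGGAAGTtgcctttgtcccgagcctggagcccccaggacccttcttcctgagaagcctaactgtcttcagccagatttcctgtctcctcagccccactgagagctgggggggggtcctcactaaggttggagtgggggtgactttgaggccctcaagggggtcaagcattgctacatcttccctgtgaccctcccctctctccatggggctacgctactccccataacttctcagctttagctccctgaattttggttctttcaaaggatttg
Elane, chr10:79886062-79886361, plus strand: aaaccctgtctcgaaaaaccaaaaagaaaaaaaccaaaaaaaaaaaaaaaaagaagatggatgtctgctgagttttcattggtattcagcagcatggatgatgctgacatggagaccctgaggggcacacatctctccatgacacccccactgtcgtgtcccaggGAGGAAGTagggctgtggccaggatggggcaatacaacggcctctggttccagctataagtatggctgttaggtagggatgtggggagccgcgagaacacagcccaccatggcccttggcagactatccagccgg
Prtn3, chr10:79879417-79879716, plus strand: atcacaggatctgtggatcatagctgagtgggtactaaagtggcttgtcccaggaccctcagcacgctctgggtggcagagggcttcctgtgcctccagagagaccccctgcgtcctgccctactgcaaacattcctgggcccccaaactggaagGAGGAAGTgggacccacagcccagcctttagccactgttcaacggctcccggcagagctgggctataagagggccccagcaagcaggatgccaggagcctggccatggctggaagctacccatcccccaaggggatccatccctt
Ctsg, chr14:56102525-56102824, minus strand: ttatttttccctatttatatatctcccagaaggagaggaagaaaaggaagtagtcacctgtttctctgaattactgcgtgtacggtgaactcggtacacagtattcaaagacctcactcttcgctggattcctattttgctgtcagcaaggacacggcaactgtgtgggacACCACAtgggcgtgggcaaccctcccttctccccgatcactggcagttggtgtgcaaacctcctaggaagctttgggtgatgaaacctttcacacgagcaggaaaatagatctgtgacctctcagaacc
Camp, chr9:109849407-109849706, minus strand: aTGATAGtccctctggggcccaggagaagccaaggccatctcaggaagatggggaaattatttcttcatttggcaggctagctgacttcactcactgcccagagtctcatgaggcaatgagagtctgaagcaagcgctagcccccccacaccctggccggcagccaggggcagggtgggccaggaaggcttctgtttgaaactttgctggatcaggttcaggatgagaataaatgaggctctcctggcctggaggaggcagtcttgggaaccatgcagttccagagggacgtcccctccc
Lcn2, chr2:32387690-32387989, minus strand: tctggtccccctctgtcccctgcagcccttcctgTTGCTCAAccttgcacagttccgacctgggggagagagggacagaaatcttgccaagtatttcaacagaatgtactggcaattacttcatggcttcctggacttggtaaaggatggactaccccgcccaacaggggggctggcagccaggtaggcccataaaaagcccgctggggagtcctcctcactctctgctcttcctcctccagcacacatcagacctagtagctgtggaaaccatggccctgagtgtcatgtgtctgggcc
The *Mpo*, *Elane* and *Prtn3* promoters each held GAGGAAGT on the coding strand, and the *Ctsg* window held a RUNX match on the opposite strand. Over all 10 members the ETS word was in 4 promoters (40%), beside 3.22% of 32619 RefSeq promoters, and the fourth was *S100a8*. C/EBP matches were in 4 of 10 beside 10.9%, RUNX matches in 3 of 10 beside 16.6%, and GATA matches in 3 of 10 beside 29.6%. No primary promoter held a GATA match within its printed window, but at *Mpo* the word AGATAA lies across the window's upstream edge and was counted in the summit window of the *Mpo* 5′ end region. Likewise a C/EBP match (TTGCTCAA) in the summit window of the *Camp* 5′ end region lies upstream of its printed window. These are descriptions of letters, given with no test.

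**Figure D1:**
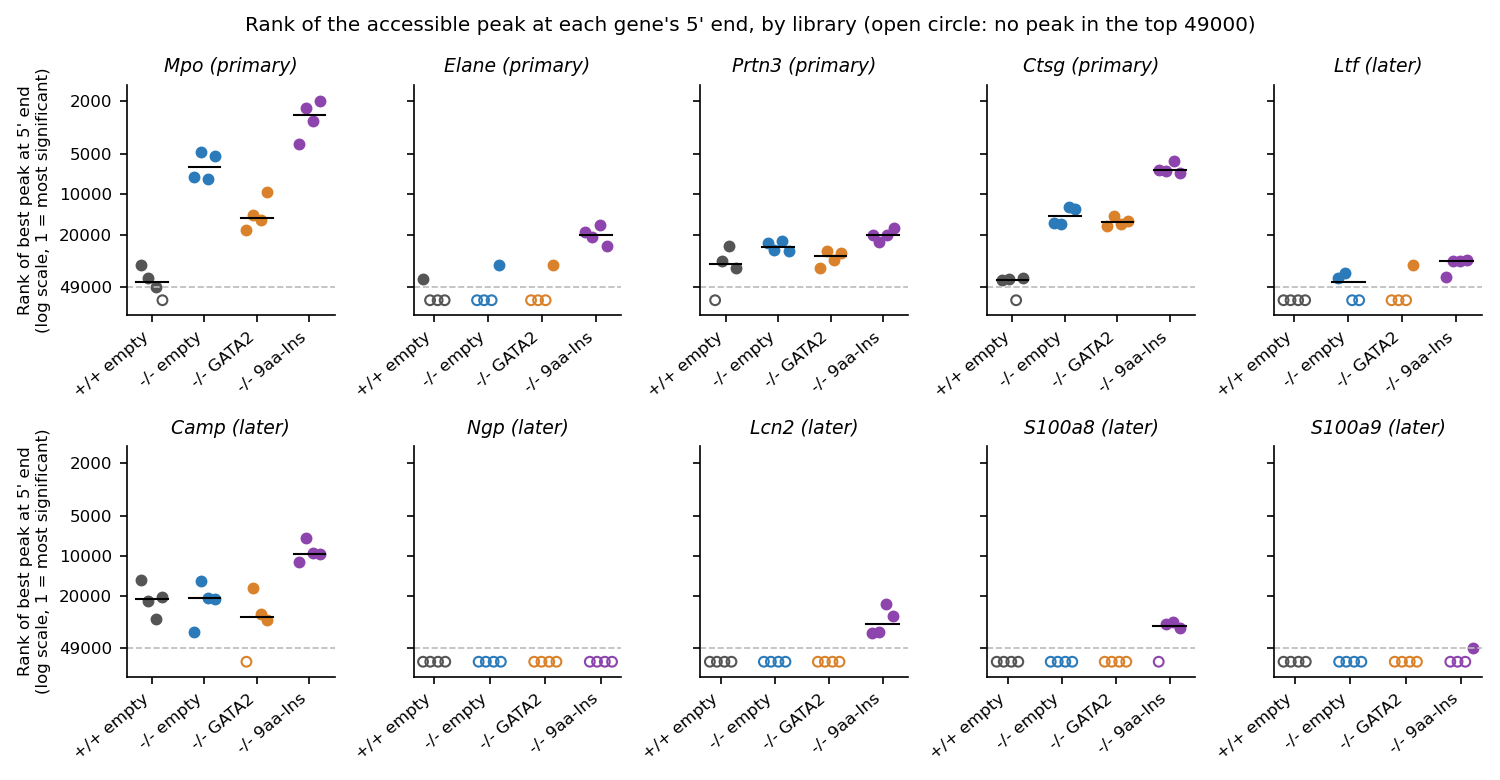
Each point is the rank of the best peak within 500 bp of a gene's 5′ end in 1 library (log axis, most significant at the top), filled where a peak was among the top 49000 and open where none was, and lines are group medians with absent peaks placed just past the last rank. *Mpo* runs from 1988 to 4219 in hi-77-/- 9aa-Ins and *Ctsg* from 5596 to 6903, above every library of the other groups.

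*Mpo* encodes myeloperoxidase, the heme enzyme of the primary granule (chromosome 11, 87793581 to 87804413, plus strand). Its 5′ end had a peak at ranks 33590, 42100 and 48981 in hi-77+/+ empty replicates 1 to 3 and none in replicate 4. In hi-77-/- empty the ranks were 7367, 4805, 7648 and 5168, and in hi-77-/- GATA2 they were 18541, 14360, 15423 and 9562. In hi-77-/- 9aa-Ins they were 4219, 2238, 2808 and 1988. The 4 groups did not overlap, and they ran from hi-77+/+ empty through GATA2 and the deleted empty cells to 9aa-Ins.

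*Ctsg* encodes cathepsin G (chromosome 14, 56099881 to 56102574, minus strand). Ranks at its 5′ end were 44002, 42939 and 42135 in hi-77+/+ empty replicates 1, 2 and 4, with no peak in replicate 3. They were 16339, 16652, 12337 and 12902 in hi-77-/- empty and 17176, 14484, 16654 and 15733 in hi-77-/- GATA2. In hi-77-/- 9aa-Ins they were 6564, 6649, 5596 and 6903. The empty and GATA2 groups of the deleted cells overlapped, the wild-type group lay below both and the 9aa-Ins group above both.

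*Elane* encodes neutrophil elastase (chromosome 10, 79886247 to 79888215, plus strand). A peak was present at its 5′ end in 1 library of each of the 3 other groups, at rank 42851 in hi-77+/+ empty replicate 1, 33694 in hi-77-/- empty replicate 4 and 33634 in hi-77-/- GATA2 replicate 4. All 4 hi-77-/- 9aa-Ins libraries had it, at ranks 19124, 20894, 16900 and 24516, and no library of another group reached these ranks. Its summits in 9aa-Ins lay 8 to 20 bp before the 5′ end.

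*Prtn3* encodes proteinase 3 (chromosome 10, 79874476 to 79883174, plus strand). The annotated 5′ end is that of a non-coding transcript, and the region there has its summit in a UTR of the neighbouring gene *Plppr3*. There, hi-77+/+ empty replicates 2, 3 and 4 had ranks 31278, 24452 and 35636, with no peak in replicate 1. The ranks were 23021, 26198, 22382 and 26689 in hi-77-/- empty and 35593, 26479, 30855 and 27401 in hi-77-/- GATA2. In hi-77-/- 9aa-Ins they were 19951, 22875, 20287 and 17707, which overlapped hi-77-/- empty. At the RefSeq start, where the coding transcript begins, the 9aa-Ins ranks were 10645, 20893, 31829 and 21118, beside 33341, 31279, 37033 and 40929 in hi-77+/+ empty. There hi-77-/- empty had 42378 and 30897 in replicates 1 and 4 and hi-77-/- GATA2 had 24784 and 43502 in replicates 1 and 2, with no peak in their other libraries. The 9aa-Ins ranks overlapped those of each other group.

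The later genes had fewer 5′ end peaks. *Camp*, the cathelicidin gene (chromosome 9, 109847379 to 109849617, minus strand), had ranks of 15128, 21862, 29614 and 20217 in hi-77+/+ empty and of 37208, 15500, 20681 and 20831 in hi-77-/- empty. In hi-77-/- GATA2 it had no peak in replicate 1 and ranks of 17406, 27342 and 30074 in the others, and in hi-77-/- 9aa-Ins ranks of 11120, 7317, 9462 and 9730. Those 3 groups overlapped each other, and 9aa-Ins lay above them all. *Ltf*, encoding lactoferrin (chromosome 9, 111019271 to 111042767, plus strand), had no peak in hi-77+/+ empty, peaks at 42180 and 38447 in hi-77-/- empty replicates 1 and 2, a peak at 33516 in hi-77-/- GATA2 replicate 4, and 41870, 31351, 31743 and 30892 in hi-77-/- 9aa-Ins.

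Peaks at 3 further later genes were seen in 9aa-Ins libraries only, within the top 49000. *Lcn2*, encoding the siderophore-binding lipocalin 2 (chromosome 2, 32384633 to 32388252, minus strand), had ranks of 37638, 36806, 22988 and 28212 in hi-77-/- 9aa-Ins. Its summits lay 277 to 374 bp downstream of the annotated 5′ end. *S100a8* (chromosome 3, 90668978 to 90670035, plus strand) had ranks of 32551, 31010 and 34469 in 9aa-Ins replicates 2, 3 and 4, and *S100a9* (chromosome 3, 90692632 to 90695721, minus strand) had rank 48874 in replicate 4 alone. In the full lists *Lcn2* also had weak peaks in hi-77-/- empty replicates 2 and 4 (54468 and 60214) and hi-77-/- GATA2 replicates 2 and 4 (56266 and 64782), and *S100a8* had a peak at 71289 in hi-77-/- GATA2 replicate 4. *Ngp*, encoding neutrophilic granule protein (chromosome 9, 110419747 to 110423012, plus strand), had no 5′ end peak in any top list.

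Counted over the 10 genes, 7, 8, 8 and 9 members had a 5′ end peak in the 4 hi-77-/- 9aa-Ins libraries. The number was 3 or 4 in hi-77+/+ empty, 4 or 5 in hi-77-/- empty and 3 to 6 in hi-77-/- GATA2. The primary set had 4 of 4 genes in every 9aa-Ins library, 3 or 4 in the other deleted groups and 2 or 3 in wild-type cells. These counts take *Prtn3* at its annotated 5′ end, where the summit lies in a UTR of *Plppr3*. At the RefSeq start *Prtn3* had a peak in every hi-77+/+ empty and 9aa-Ins library, but not in every library of the other groups. For the later set 3 to 5 of 6 genes had a peak in 9aa-Ins, and 0 to 2 in every other library. The full lists, which differ in length, gave 9 of 10 members in each 9aa-Ins library (70219 to 107594 peaks), and 3 to 8 in the others. In hi-77-/- GATA2 the lists of 49852 and 53743 peaks gave 3 and 4 members, and those of 77687 and 72591 peaks gave 7 and 8. In hi-77+/+ empty, lists of 76022 to 111743 peaks gave 4 or 5. The part of list length was not tested.

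To compare groups, the rank was turned into a score, log2((49000 + 1)/rank), which is 0 where no peak was listed and rises by 1 each time the rank falls 2-fold. The score was tested with limma across the 11046 protein-coding genes that had a 5′ end peak in at least 4 of 16 libraries, with Benjamini-Hochberg adjustment over all of them. In all, 7 members were tested, and *Ngp*, *S100a8* and *S100a9* had too few peaks.

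The scores of *Mpo* and *Ctsg* were higher in hi-77-/- empty than in hi-77+/+ empty. *Mpo* went from a mean score of 0.19 ± 0.26 (SD, n = 4) to 3.00 ± 0.34 (SD, n = 4), a difference of 2.81 ± 0.25 (SE, adjusted p = 5.73e-08). *Ctsg* went from 0.14 ± 0.10 to 1.76 ± 0.23, a difference of 1.62 ± 0.16 (adjusted p = 1.55e-07). Of the 7 members tested 2 rose, both primary, beside 13.0% of all genes tested, and 0 fell, beside 18.6% (0 at an unadjusted p under 0.05 too). *Ltf* and *Lcn2* had no peak in hi-77+/+ empty and could not fall. *Elane* (mean score 0.05), *Ctsg* and *Mpo* were near the floor of 0 there, so the lack of falls says little. *Prtn3* did not pass at 0.47 ± 0.18 (adjusted p = 0.0508) at its annotated 5′ end. At its RefSeq start the difference had the opposite sign, -0.25 ± 0.25 (adjusted p = 0.482). The 3 later genes tested had differences of -0.08 (*Camp*), 0.00 (*Lcn2*, with no peak in either group) and 0.14 (*Ltf*), none past the threshold.

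GATA2 lowered *Mpo* relative to hi-77-/- empty, by a difference of -1.20 ± 0.25 (adjusted p = 0.00688), to a mean score of 1.80 ± 0.40. It was the 1 member that fell, beside 1.67% of genes tested. In the opposite direction 0 members rose, beside 1.67% (0 at an unadjusted p under 0.05 too). The *Mpo* score with GATA2 stayed above that of hi-77+/+ empty in every library. On a linear rank scale the *Mpo* call was lost (adjusted p = 0.147). *Ctsg*, which the deletion also raised, had a difference of -0.15 ± 0.16 (adjusted p = 0.695) and overlapping groups.

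9aa-Ins raised the scores of *Ctsg*, *Mpo* and *Camp* over hi-77-/- empty. *Ctsg* gained 1.17 ± 0.16 (adjusted p = 0.000331), *Mpo* 1.18 ± 0.25 (adjusted p = 0.0362) and *Camp* 1.26 ± 0.28 (adjusted p = 0.0412). *Elane* (1.15 ± 0.17) and *Lcn2* (0.67 ± 0.15) were also past the threshold, but had 3 and 0 peaks outside the 9aa-Ins group and so met the filter only through the group where they are high. Their values are descriptions, and they make up 2 of the 5 members called. *Prtn3* did not pass at its annotated 5′ end (0.28 ± 0.18, adjusted p = 0.692). At its RefSeq start, a setting added after seeing the data, it did (1.10 ± 0.25, adjusted p = 0.044), though the ranks of the groups overlapped there. Of all genes tested 49 rose, or 0.444%, and 4 fell, or 0.0362%. No member fell (0 at an unadjusted p under 0.05 too). *Lcn2* had no peak in hi-77-/- empty and could not fall, and *Elane* had a peak in 1 library there. Ordered by p among 11046 genes, *Ctsg* was 8th, *Mpo* 37th and *Camp* 47th.

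How firmly these calls stood differed by gene. *Ctsg* remained past the threshold when any 1 of the 8 libraries was left out (highest adjusted p 0.00372). The *Mpo* call was lost in 5 of 8 such fits and the *Camp* call in 7 of 8, with highest adjusted p of 0.143 and 0.185. With 250 bp in place of 500 bp to each side of the 5′ end these 2 had adjusted p of 0.053 and 0.0713, and on a linear rank scale *Ctsg* (0.146), *Mpo* (0.797) and *Camp* (0.408) did not pass. In the fit over merged regions the *Mpo*, *Camp* and *Ctsg* 5′ ends passed in every fit that left out a library, with highest adjusted p of 0.0251, 0.0375 and 0.00115. That fit reads the same peaks, so it is not independent of the fit over genes. It called 6.35% of its features higher, beside 0.444% of genes.

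Set directly against GATA2, 9aa-Ins was past the threshold at the same 5 genes, beside 1.67% of genes tested, with *Elane* and *Lcn2* again as descriptions. The differences were 2.39 ± 0.25 for *Mpo* (adjusted p = 5.51e-06), 1.64 ± 0.28 for *Camp* (adjusted p = 0.000965), and 1.32 ± 0.16 for *Ctsg* (adjusted p = 2.56e-05). *Elane* differed by 1.14 ± 0.17 and *Lcn2* by 0.67 ± 0.15. No member was lower, beside 0.996% (0 at an unadjusted p under 0.05 too). *Lcn2* had no peak in hi-77-/- GATA2 and could not be lower, and *Elane* and *Ltf* had a peak in 1 library each there. The *Mpo*, *Camp* and *Ctsg* calls held without any 1 library. *Prtn3* (0.57 ± 0.18, adjusted p = 0.104) and *Ltf* (0.40 ± 0.15, adjusted p = 0.195) did not pass at the gene level. In the fit over regions the *Prtn3* 5′ end passed (adjusted p = 0.0403). At its RefSeq start *Prtn3* passed as well (1.03 ± 0.25, adjusted p = 0.0221), with overlapping ranks. The *Ltf* 5′ end had 3 peaks outside 9aa-Ins and met the filter only through that group. The GATA2 and 9aa-Ins comparisons share the hi-77-/- empty libraries.

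**Figure D2:**
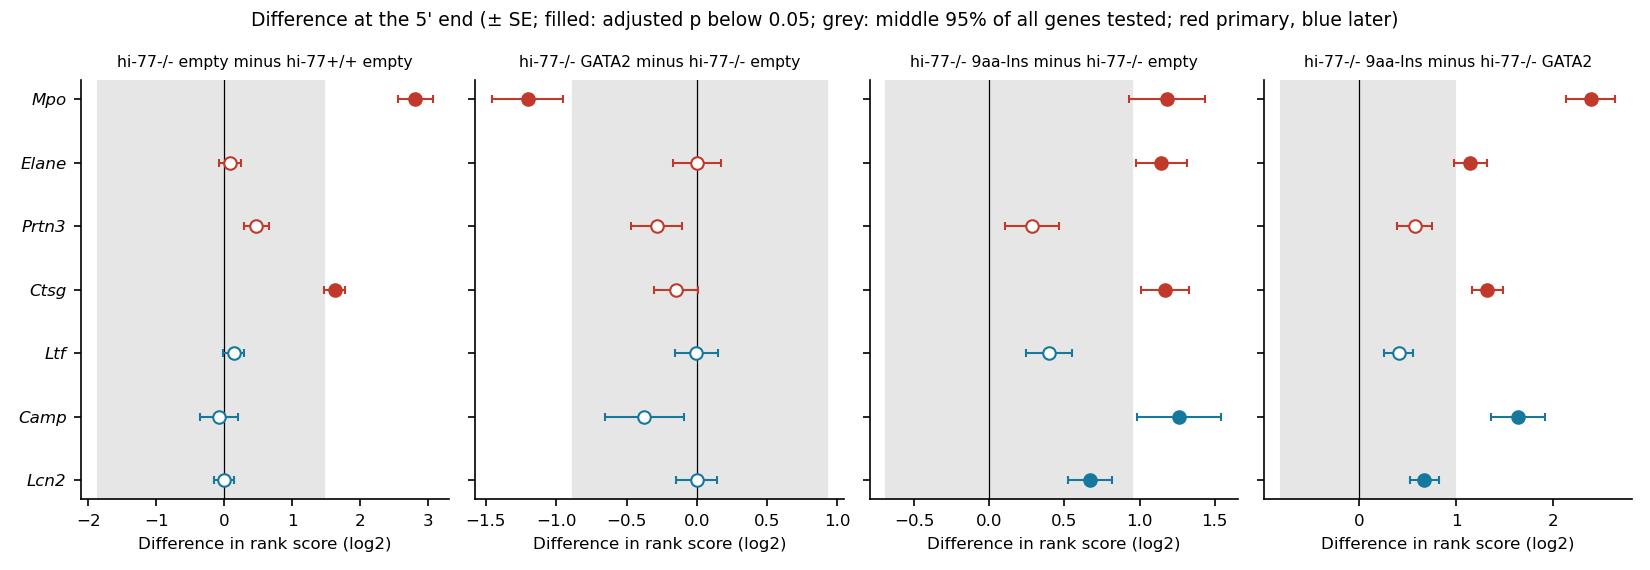
Differences in rank score at the 5′ end (log2 scale, ± SE) of the 7 tested members in each comparison, filled where the adjusted p was below 0.05, with *Elane*, *Lcn2* and *Ltf* tested only through their 9aa-Ins peaks, over a grey band that spans the middle 95% of all 11046 genes tested. *Mpo* lies to the right in the deletion comparison (2.81), to the left with GATA2 (-1.20) and to the right with 9aa-Ins (1.18).

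Medians over the tested members, beside those over all genes, were 0.14 and -0.02 for the deletion, -0.15 and 0.10 for GATA2, 1.15 and 0.03 for 9aa-Ins, and 1.14 and -0.06 for 9aa-Ins against GATA2. For the primary genes they were 1.05, -0.22, 1.16 and 1.23 in the same order, and for the later genes 0.00, 0.00, 0.67 and 0.67. The later medians rest on 3 genes, of which *Ltf* and *Lcn2* met the filter only through 9aa-Ins, as did *Elane* among the primary genes. The member medians of 1.15 and 1.14 are the values of *Elane* itself, and the later medians of 0.67 are those of *Lcn2*. The primary medians of 1.16 and 1.23 lie between *Elane* and *Ctsg*. All of these medians are therefore descriptions. The primary medians take *Prtn3* at its annotated 5′ end.

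Other granule and neutrophil genes were read from a list of 18, of which 12 were tested. Loss of the enhancer raised 4 of them, *Fcnb* (ficolin, 1.55), *Slc11a1* (the phagosomal metal transporter, 1.30), *Mmp8* (neutrophil collagenase, 1.03) and *Fcer1g* (the Fc receptor gamma chain, 0.98), and lowered 0 (0 at an unadjusted p under 0.05 too). GATA2 lowered 3, *Ctsc* (the protease that activates granule serine proteases, -1.74), *Fcnb* (-1.64) and *Bpi* (a bactericidal protein, -0.73), and raised 0 (1 at an unadjusted p under 0.05). 9aa-Ins raised 1, *Ms4a3* (a marker of granulocyte and monocyte progenitors, 1.98, adjusted p = 3.22e-05), and lowered 0 (0 at an unadjusted p under 0.05 too). Against GATA2, 9aa-Ins was higher at 5, *Ms4a3*, *Prss57*, *Ctsc*, *Fcnb* and *Slc11a1*, and lower at 0 (0 at an unadjusted p under 0.05 too). Over all 11046 genes tested, 13.0% rose and 18.6% fell with the deletion, and 1.67% rose and 1.67% fell with GATA2. With 9aa-Ins 0.444% rose and 0.0362% fell, and against GATA2 it was higher at 1.67% and lower at 0.996%.

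Regulators of the granulocyte program were read from a list of 10, with 9 tested. The deletion raised *Spi1* (PU.1, 2.09), *Cebpa* (1.37), *Myb* (0.88) and *Runx1* (0.67), beside 13.0% of all genes tested. It lowered *Irf8* (-0.48), beside 18.6%. The *Spi1* difference includes a score of 0 for hi-77+/+ empty replicate 4, which had no peak, while replicates 1 to 3 had ranks 4218, 8766 and 5536. The groups overlapped at *Cebpa* and *Irf8*. In limma 0 regulators passed with GATA2, with 9aa-Ins or between them, with 2, 2 and 3 at an unadjusted p under 0.05.

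Beyond the 5′ ends, 86 of the 132 regions had a peak in at least 4 libraries and were tested among 57174 regions. Of the 132, 35 (26.5%) were present in all 16 libraries, beside 23.4% of all regions. Windows also hold neighbouring genes, and 37 regions lay nearest to a member's own 5′ end. The *Elane* and *Prtn3* windows overlap, and so do those of *S100a8* and *S100a9*, so their regions are shared. The strongest region by median rank near *Elane* and *Prtn3* lay at the neighbour *Ptbp1*, 20.1 kb before *Prtn3* (median rank 168). For *Ctsg* the strongest region lay 3.08 kb before its own 5′ end (median rank 11733). Elsewhere the best-ranked regions lay 38.1 kb before *Mpo*, nearest to *Tspoap1* (1631.5), and 25.7 kb before *Camp* near *Cdc25a* (3660.5). For *Lcn2* it lay 6.26 kb past the start, at the 5′ end of *1110008P14Rik* (4708). For *Ngp* it lay 11.4 kb before the gene, at the 5′ end of *Ptpn23* (8054.5). The others lay 21.8 kb before *Ltf*, nearest to *Rtp3* (13368.5), and 14.6 kb before *S100a9* (16629.5).

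**Figure D3:**
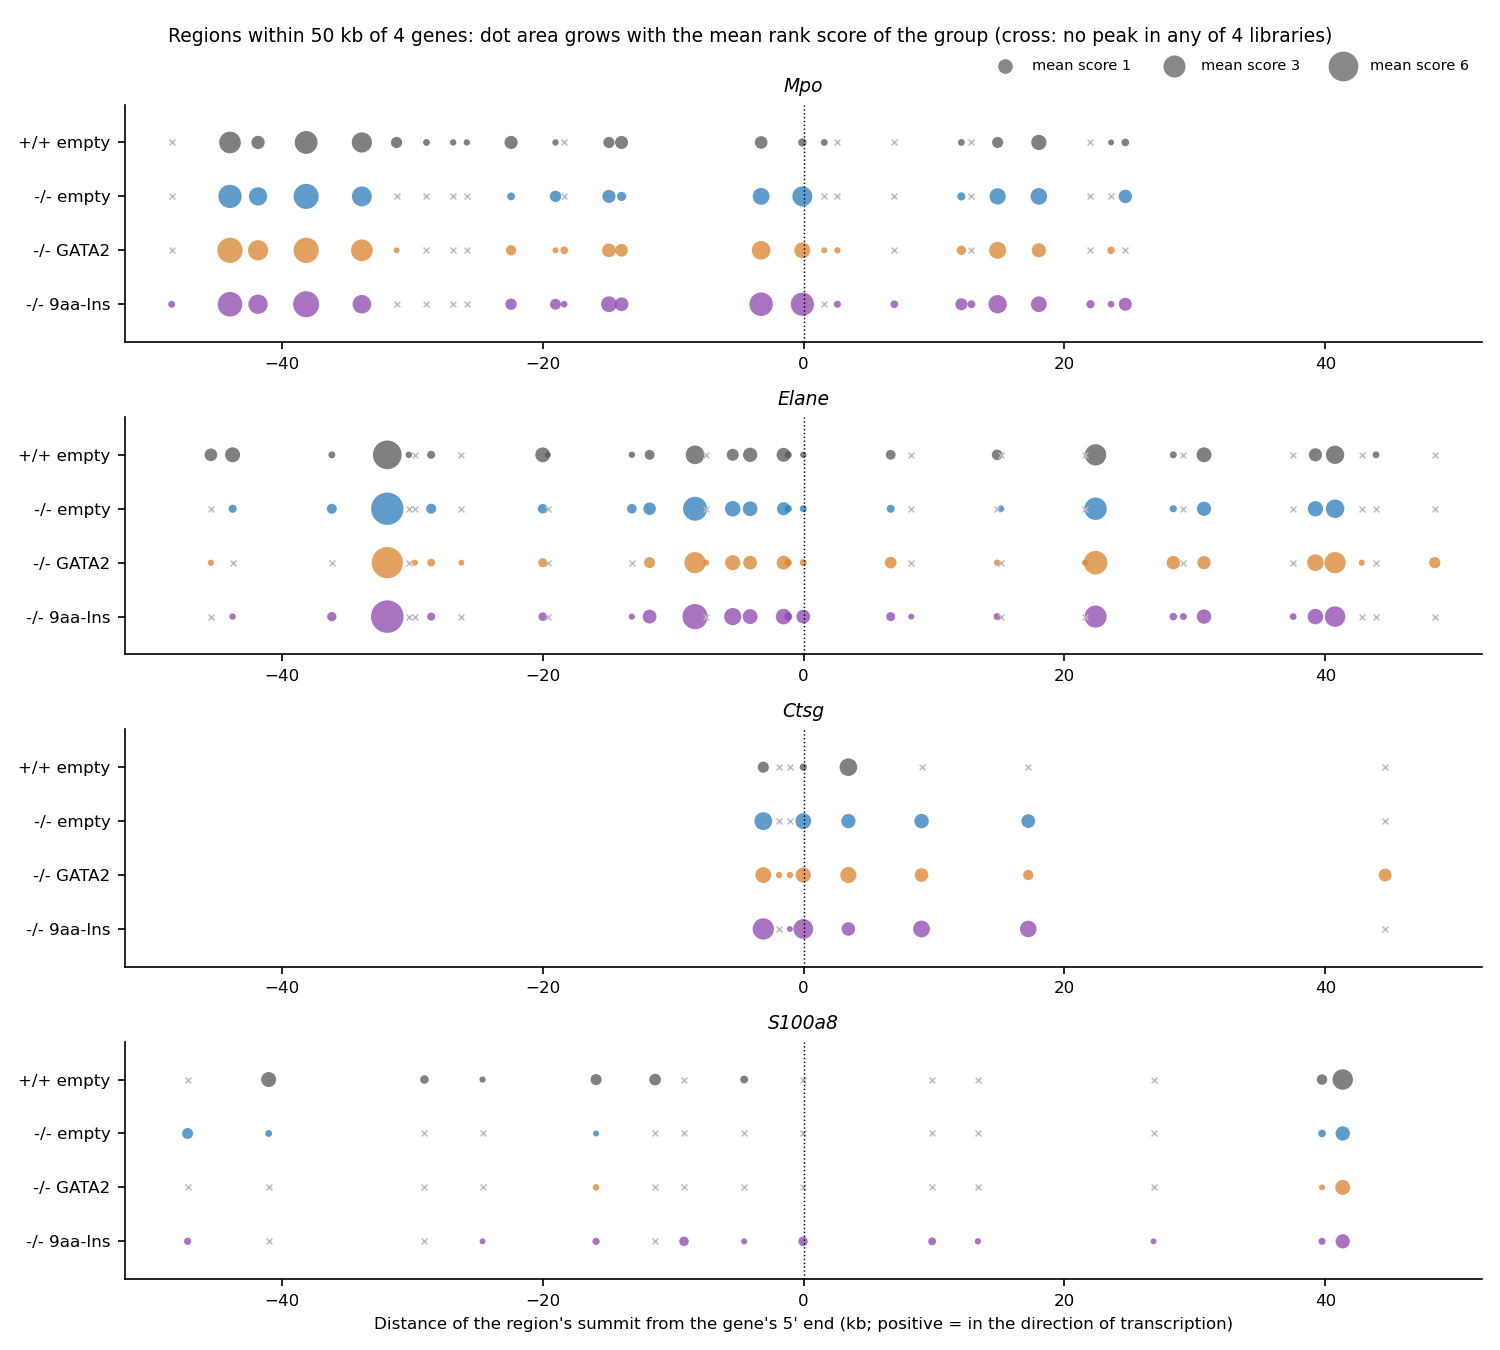
Regions within 50 kb of *Mpo*, *Elane*, *Ctsg* and *S100a8* by distance of the summit from the 5′ end (kb, positive in the direction of transcription), 1 row per group, with dot area growing with the mean rank score and a cross where none of 4 libraries had a peak. Dots at *Ctsg* 9.05 and 17.2 kb are absent in hi-77+/+ empty and present in the 3 deleted groups.

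Loss of the enhancer raised 17 of the 86 regions (19.8%, beside 20.2% of all tested) and lowered 24 (27.9%, beside 20.6%). Primary and later windows divided unequally. Around primary genes 14 regions rose and 8 fell out of 45, and around later genes 3 rose and 16 fell out of 41. This division was seen and not tested. Most of these calls were nearest to another gene, with 8 up and 6 down in primary windows and 3 up and 13 down in later windows. Among regions nearest to a member, 6 rose and 2 fell in primary windows, and 0 rose and 3 fell in later windows. This split was made after the values were seen. Of the calls over all windows, 1 of the 17 that rose and 9 of the 24 that fell met the filter only through the group where they are high. By presence in 4 of 4 against 0 of 4 libraries, 3 of 132 regions opened (beside 3.59% of all regions) and 5 closed (beside 2.11%).

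Around *Ctsg*, the deletion raised regions upstream and farther downstream and lowered a region close to the gene's end. A region 9.05 kb downstream of the 5′ end, past the gene (chromosome 14, 56093164 to 56093828) had no peak in hi-77+/+ empty and ranks 14402, 26635, 13978 and 20078 in hi-77-/- empty, a difference of 1.44 ± 0.28 (adjusted p = 0.000361). Another at 17.2 kb (56085011 to 56085540) had no peak in hi-77+/+ empty and ranks 20046, 18716, 24711 and 18106 in hi-77-/- empty (1.28 ± 0.23, adjusted p = 0.000149). Both lay nearer to the basophil protease gene *Mcpt8* than to *Ctsg*, and the one at 17.2 kb was the region at the *Mcpt8* 5′ end itself. The region 3.08 kb upstream (56104911 to 56106180) had ranks 30534, 25081, 30275 and 32136 in hi-77+/+ empty and 9106, 8771, 11563 and 9652 in hi-77-/- empty (1.60 ± 0.24, adjusted p = 2.4e-05). The region 3.44 kb downstream (56099019 to 56099355), nearest to *Ctsg* and present in all 16 libraries, had ranks 12375, 7834, 12229 and 9030 in hi-77+/+ empty and 20047, 13193, 21043 and 22330 in hi-77-/- empty (-0.88 ± 0.24, adjusted p = 0.005). The regions at 9.05 and 3.44 kb were picked after their values were seen.

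GATA2 and 9aa-Ins differed at the region 3.08 kb upstream of *Ctsg* and at the *Mcpt8* 5′ end, 17.2 kb downstream. The upstream *Ctsg* region had ranks 17177, 12880, 15561 and 11903 with GATA2 and 5882, 2496, 4638 and 5890 with 9aa-Ins. 9aa-Ins raised it over hi-77-/- empty by 1.12 ± 0.24 (adjusted p = 0.00419) and over GATA2 by 1.67 ± 0.24 (adjusted p = 2.58e-05). At 17.2 kb GATA2 gave 32117, 30028 and 23498 with no peak in replicate 3, a difference of -0.68 ± 0.23 (adjusted p = 0.0371), while 9aa-Ins gave 19296, 9895, 11008 and 11276 (0.71 over hi-77-/- empty, adjusted p = 0.0613).

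Near *Mpo*, a region 3.25 kb upstream (chromosome 11, 87789806 to 87790700) carried the largest 9aa-Ins difference among member regions. Its ranks were 8443, 12381, 12243 and 15507 in hi-77-/- empty, 16988, 4379, 8390 and 6881 in hi-77-/- GATA2, and 6516, 1816, 1589 and 2362 in hi-77-/- 9aa-Ins. The 9aa-Ins group lay above hi-77-/- empty in all 4 libraries and overlapped GATA2. The difference from hi-77-/- empty was 2.201 ± 0.416 (adjusted p = 0.0013). On a linear rank scale this call and that of the *Ctsg* upstream region were lost (adjusted p = 0.231 and 0.1).

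A region 24.7 kb past the *Mpo* start, in an intron of the lactoperoxidase gene *Lpo* (87818129 to 87818411), behaved otherwise. It had ranks 37674, 13105, 18087 and 23490 in hi-77-/- empty and 32119, 20958, 18549 and 21185 in hi-77-/- 9aa-Ins, and no peak in any GATA2 library. GATA2 lowered it by a difference of -1.20 ± 0.25 (adjusted p = 0.00103), a call lost when only the most significant 50% of the peaks were used (adjusted p = 0.075). In hi-77+/+ empty, replicates 2 and 3 had ranks 42101 and 33267. A further region 31.2 kb before *Mpo*, in an intron of *Tspoap1* (87761336 to 87764383), had ranks 33589, 27826, 33266 and 22540 in hi-77+/+ empty and none in hi-77-/- empty (-0.76 ± 0.11). It met the filter only through the wild-type group, so the value is a description. A region 19 kb before *Mpo*, in a coding exon of *Tspoap1* (87774348 to 87774997), followed the course of the *Lpo* intron, with a deletion difference of 0.73 ± 0.15 (adjusted p = 0.000475) and a GATA2 difference of -0.78 ± 0.15 (adjusted p = 0.000473).

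In the windows of other members, regions changed in both directions with the deletion. The region 45.3 kb before *Camp*, near *Cdc25a* (chromosome 9, 109894781 to 109895056), had ranks 9131, 7005, 6669 and 7493 in hi-77+/+ empty and 42173, 31235, 20682 and 36822 in hi-77-/- empty (-2.07 ± 0.25, adjusted p = 1.9e-06). A region 32 kb before *Prtn3*, near *Ptbp1* (chromosome 10, 79842295 to 79842683), fell by 1.31 on the log2 scale (adjusted p = 2e-06), and one 16.3 kb before *Ngp*, in an intron of *Ptpn23* (chromosome 9, 110403363 to 110403513), had a difference of -0.97 ± 0.12, a description since it met the filter only through wild-type cells. A region 27.1 kb past *Ltf* (chromosome 9, 111046213 to 111046622) went the other way, by 1.20 ± 0.23 with the deletion (adjusted p = 0.000325) and by -0.93 ± 0.23 with GATA2 (adjusted p = 0.00507).

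Over all windows GATA2 raised 6 of the 86 regions (6.98%, beside 9.02%) and lowered 9 (10.5%, beside 12.4%). It opened 2 of 132 (beside 1.73%) and closed 3 (beside 2.23%). The opened pair lay far from the members. One stood 44.6 kb downstream of *Ctsg*, nearest to the mast cell protease gene *Mcpt4* (chromosome 14, 56057815 to 56058190), with ranks 36564, 17740, 22913 and 18937 in hi-77-/- GATA2 and no peak in the other 12 libraries (1.09 ± 0.16). The other stood 48.4 kb past *Elane* in an intron of *Arid3a* (chromosome 10, 79934425 to 79934713), with ranks 24786, 22095, 46868 and 27403 in hi-77-/- GATA2 and no peak elsewhere (0.76 ± 0.15). Both met the filter only through the GATA2 group, so their values are descriptions. The next regions that GATA2 raised lay 28.3 kb past *Elane*, in a non-coding exon of *R3hdm4* (1.07 ± 0.20, adjusted p = 0.000329), and 35.9 kb before *Lcn2*, in an intron of *Slc25a25* (0.66 ± 0.20, adjusted p = 0.0215, lost in 4 of 8 fits that left out a library). The closed regions were the *Lpo* intron, a region 47.2 kb before *S100a8* and one 1.39 kb before *Prtn3*.

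Sequences of 200 bases around the summits of 5 distal regions are printed. They are some of the regions described near *Mpo* and *Ctsg*, and the 2 seen with GATA2 only. The other regions described near these genes are not printed, and the one at 9.05 kb was picked after its values were seen. They were read from GRCm38.p6, with the same motifs in capitals.
Mpo, 3.25 kb upstream, chr11:87790233-87790432, plus strand: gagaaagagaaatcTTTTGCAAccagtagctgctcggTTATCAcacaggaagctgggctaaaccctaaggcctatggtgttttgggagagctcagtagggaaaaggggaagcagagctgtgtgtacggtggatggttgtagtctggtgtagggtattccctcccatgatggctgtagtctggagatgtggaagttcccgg
Ctsg, 3.08 kb upstream, chr14:56105556-56105755, plus strand: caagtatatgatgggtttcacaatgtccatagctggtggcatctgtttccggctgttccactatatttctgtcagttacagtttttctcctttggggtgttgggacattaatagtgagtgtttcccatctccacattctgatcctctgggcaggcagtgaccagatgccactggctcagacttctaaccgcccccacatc
Ctsg, 9.05 kb downstream, chr14:56093428-56093627, plus strand: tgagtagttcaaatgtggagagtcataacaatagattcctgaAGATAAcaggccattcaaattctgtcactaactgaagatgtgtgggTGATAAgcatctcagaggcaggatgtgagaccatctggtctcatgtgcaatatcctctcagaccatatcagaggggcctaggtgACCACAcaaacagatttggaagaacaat
Ctsg, 44.6 kb downstream, chr14:56057895-56058094, plus strand: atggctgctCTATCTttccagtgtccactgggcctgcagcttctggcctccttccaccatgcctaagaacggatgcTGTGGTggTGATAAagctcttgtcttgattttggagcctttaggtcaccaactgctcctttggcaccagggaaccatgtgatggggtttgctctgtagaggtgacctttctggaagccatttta
Elane, 48.4 kb downstream, chr10:79934527-79934726, plus strand: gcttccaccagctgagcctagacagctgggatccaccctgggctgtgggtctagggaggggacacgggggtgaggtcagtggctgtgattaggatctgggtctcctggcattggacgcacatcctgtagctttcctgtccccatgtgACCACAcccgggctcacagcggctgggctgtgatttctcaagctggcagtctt
The *Mpo* upstream window held 1 C/EBP and 1 GATA match, and the *Ctsg* upstream window held none of the 4 motifs. The *Ctsg* windows at 9.05 and 44.6 kb held 2 GATA and 1 RUNX matches each. In the *Arid3a* intron there was 1 RUNX match and no GATA match. Over the 132 windows GATA matches were in 29.5% (26.4% of all 90549 regions), C/EBP in 12.1% (11.2%), ETS in 6.82% (7.5%) and RUNX in 28% (24.6%).

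**Figure D4:**
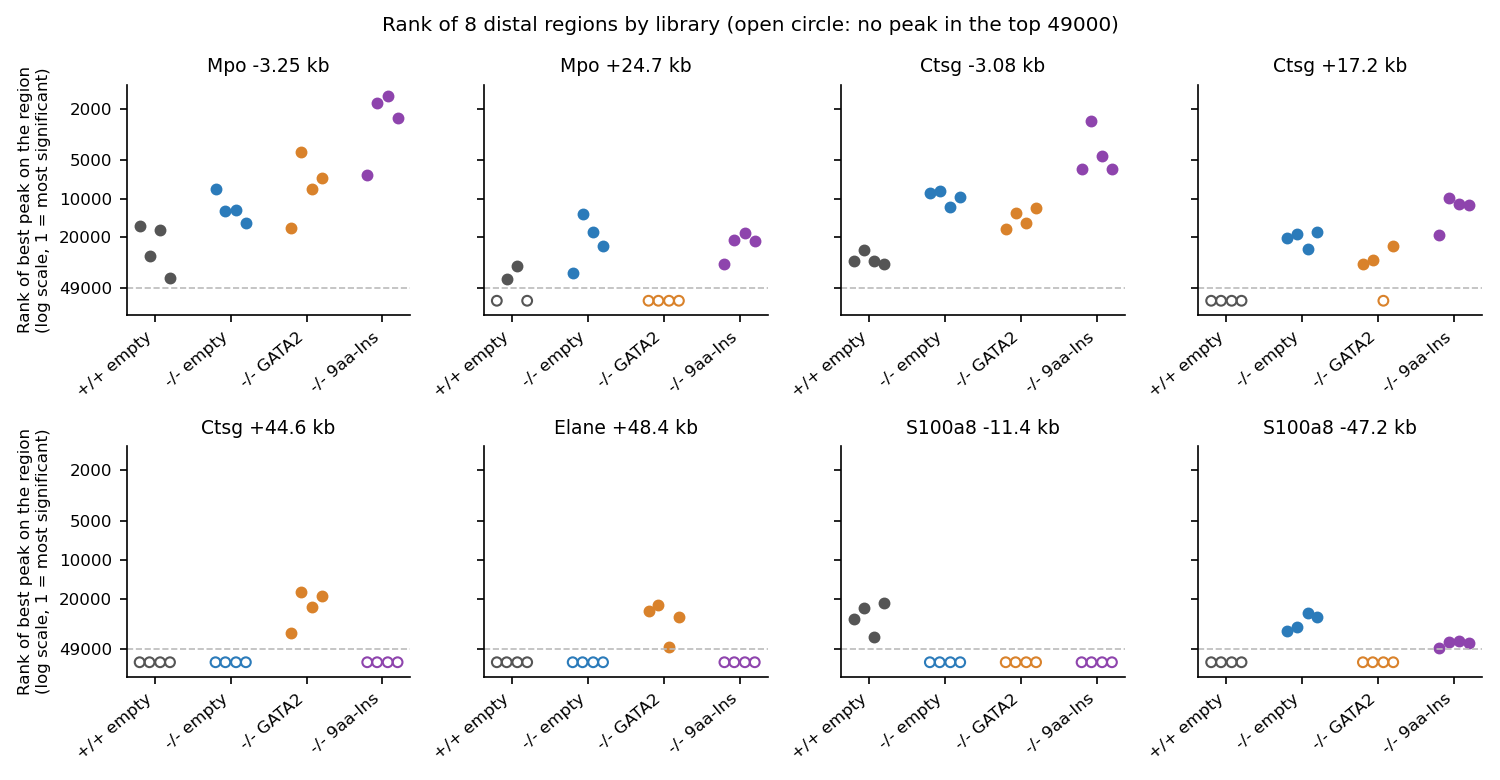
Rank of the best peak (log axis, most significant at the top) on 8 regions away from the 5′ ends, 1 point per library, open where no peak was among the top 49000, titled by the nearest member and its distance. *Ctsg* +44.6 kb and *Elane* +48.4 kb have peaks in the 4 GATA2 libraries only, and *S100a8* -11.4 kb in the 4 hi-77+/+ empty libraries only.

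9aa-Ins raised 9 of the 86 regions (10.5%, beside 6.35%) and lowered 2 (2.33%, beside 2.22%) relative to hi-77-/- empty, and 2 of the 9 (the *Elane* and *Lcn2* 5′ ends) and 1 of the 2 met the filter only through the group where they are high. Of the 9, 8 lay nearest to a member's own 5′ end, among 25 tested regions of that kind, and 1 lay nearest to another gene, among 61. This split was made after the values were seen. The 8 were the 5′ ends of *Mpo*, *Elane*, *Ctsg*, *Camp* and *Lcn2*, the upstream regions of *Mpo* and *Ctsg*, and a region 12.1 kb past the *Mpo* start (0.64 ± 0.18, adjusted p = 0.026), whose call was lost in 4 of 8 fits that left out a library. The remaining region lay 40.2 kb past *Ltf*, nearer to *Ccrl2* (0.80 ± 0.16, adjusted p = 0.00187). The pair that fell lay 47.2 kb before *S100a8* (-0.55 ± 0.11, adjusted p = 0.00189) and 1.39 kb before *Prtn3* (-0.43 ± 0.13, a description for the same reason). With the full lists the first did not pass (adjusted p = 0.185). By presence 1 region opened (beside 1.35%), the *Lcn2* 5′ end, and 0 closed (beside 0.171%).

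Against GATA2, 9aa-Ins had 15 regions higher (17.4%, beside 16.6%) and 7 lower (8.14%, beside 8.45%), of which 3 and 2 met the filter only through the group where they are high. By presence 4 were open in 9aa-Ins and not in GATA2 (beside 2.97%), namely the *Lcn2* 5′ end, the *Lpo* intron, the region 47.2 kb before *S100a8* and one 24.4 kb before *Prtn3*, which was picked after its values were seen. The *Ctsg* +44.6 kb and *Elane* +48.4 kb regions were the 2 closed (beside 1.47%).

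At the calprotectin locus the most significant region, 14.6 kb before *S100a9* (chromosome 3, 90710046 to 90710417), had ranks 7673, 6759, 4786 and 3775 in hi-77+/+ empty and 19210, 17035, 15265 and 22856 in hi-77-/- empty, a difference of -1.73 ± 0.24 (adjusted p = 6.7e-06). The GATA2 ranks, 15978 to 17089, and the 9aa-Ins ranks, 13593 to 23103, stayed below those of wild-type cells. A region 41 kb before *S100a8*, nearer to *S100a6* (90627905 to 90628105), had ranks 28684, 12804, 12547 and 16044 in hi-77+/+ empty, 46080 and 39142 in hi-77-/- empty replicates 1 and 4, and no peak with GATA2 or 9aa-Ins (-1.47 ± 0.19). Another, 11.4 kb before *S100a8* in an intron of *S100a7a* (90657488 to 90657675), was seen in the 4 hi-77+/+ empty libraries only, at 28685, 23402, 39708 and 21470 (-0.83 ± 0.14). Both met the filter only through the wild-type group, so their differences are descriptions, and the second was picked after its values were seen.

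The opposite course was taken by the region 47.2 kb before *S100a8*, in an intron of *S100a6* (90621650 to 90621934). It had no peak in hi-77+/+ empty or hi-77-/- GATA2. In hi-77-/- empty its ranks were 35643, 33154, 25528 and 27825, and in hi-77-/- 9aa-Ins 47824, 42872, 42531 and 44182. The deletion difference was 0.70 ± 0.11 (adjusted p = 3.21e-05) and the GATA2 difference -0.70 ± 0.11 (adjusted p = 5.09e-05).

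The number of peaks within 50 kb was counted as a coarser measure. A gene was called when the groups did not overlap. In the deletion comparison 4 of 10 members were called, beside 12.6% of all genes. *Ctsg* went from 3 peaks in each hi-77+/+ empty library to 5 in each hi-77-/- empty library. *Ngp* went from 8 or 9 peaks to 6 or 7, *S100a8* from 5, 6, 7 and 8 to 4, 4, 2 and 3, and *S100a9* from 4, 4, 5 and 5 to 2, 3, 1 and 1. All 10 regions in the *S100a9* window also lie in that of *S100a8*. The calls of these genes therefore count the same peaks at a single locus and are not separate members beside the share of all genes.

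With GATA2, *Ctsg* alone was called (8, 6, 7 and 6 peaks, beside 6.09% of all genes). With 9aa-Ins, *S100a8* (5, 7, 5 and 8 peaks) and *S100a9* (4, 6, 4 and 6) were called as higher than hi-77-/- empty, beside 3.10%, and as higher than GATA2, beside 7.79%. Again *S100a8* and *S100a9* share these peaks, so every 9aa-Ins call comes from a single locus. Their counts in 9aa-Ins overlapped those of hi-77+/+ empty, but the regions were partly others. In 9aa-Ins 3 libraries had a peak 9.16 kb before *S100a8* and 3 had one 9.86 kb past it, and neither was seen in any other group. These regions were picked after their values were seen. By contrast, the regions 41 and 11.4 kb before *S100a8* had no 9aa-Ins peak.

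**Figure D5:**
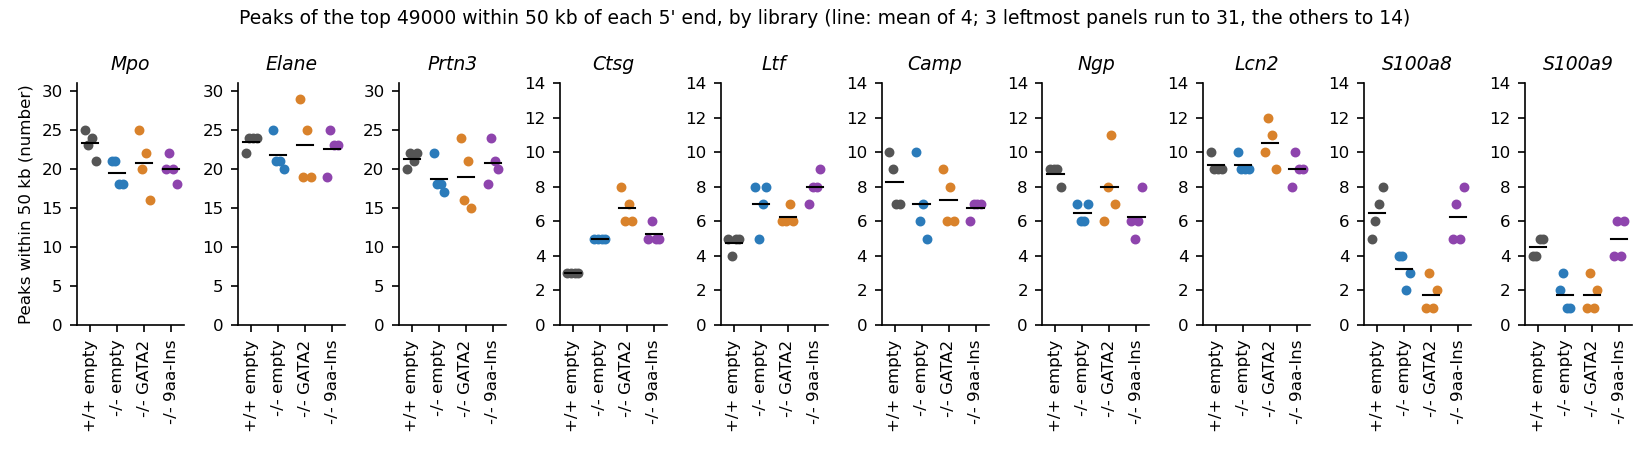
Number of top-49000 peaks within 50 kb of each 5′ end, 1 point per library with the mean as a line. *Ctsg* rises from 3 to 5 with the deletion, and *S100a8* and *S100a9* are lower in hi-77-/- empty and GATA2 than in the other groups.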

How the data were processed

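The data were 16 ATAC-Seq peak lists, 4 libraries per group, grouped by the labels. Per the study's methods and processing notes, reads were trimmed (Trim Galore 0.4.1), aligned to mm10 (Bowtie2 2.2.5) and freed of duplicates (Picard 2.26.0), and the authors called peaks in each library with MACS2, whose version is not given in the sources used here. MACS2's fixed-background option is stated for the hi-77-/- groups. In all 16 lists the fold enrichments were whole multiples of a single step (within 0.02), as a fixed background gives. The deposited columns held a score, a fold enrichment over background (a ratio), -log10 p and -log10 q values, and the summit position. Replicates were not pooled, and the 4 libraries are described as biological replicates. Read depth is unknown, so no interval for counting error is given.

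Peaks on chromosomes 1 to 19 and X were ordered by -log10 p, with ties broken by fold enrichment and then position, and the top 49000 of each list were kept, 784000 in all. Between 989 and 5620 kept peaks of a list were tied at its last -log10 p. Overlapping peaks were merged into 90549 regions. A region or 5′ end (500 bp to each side, GENCODE M21) was tested where at least 4 libraries had a peak, by limma 3.58.1 (R 4.3.3) with a variance trend on log2((49000 + 1)/rank), fitted over all 4 groups, with Benjamini-Hochberg adjustment over all features and a threshold of 0.05. Features that met this filter only through the group where they are high are given as descriptions. The rank compares order within a library, not the amount of accessible DNA. Regions called present had a peak in 4 of 4 libraries of one group and 0 of 4 of the other. Python 3.11.15, numpy 2.4.6, pandas 2.3.3 and matplotlib 3.10.9 were also used, and scripts were tested on simulated data.

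The genes and lists were chosen with earlier results of these data known. The genes named were all 10 members, and listed genes past the threshold in a comparison. The regions named were those at the 5′ ends, the best-ranked of each window, and up to 10 member regions per comparison in order of adjusted p, with others said to be picked after their values were seen. Alternatives were the full lists, the most significant 50% of the peaks used, a linear rank, other windows and filters, the replicate number as a block and leaving out each library. Sharing ranks among ties and using the RefSeq start were added after seeing the data.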

Additional observations from a re-analysis of the deposited data

Results flagged for a closer look

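In groups of 4, a library was looked at again when its gap to the nearest other library, divided by the range of the group, was above Dixon's 95% critical value. This held in 9 of 55 groups, and chance alone gives about 1 in 20. In 8 of the 9 the measure was the number of peaks within 50 kb, where 3 libraries had one count and the other library another, so that any step stands out. The count that stood apart was 22 for *Elane*, 4 for *Ltf*, 8 for *Ngp* and 10 for *Lcn2* in hi-77+/+ empty, 10 for *Lcn2* in hi-77-/- empty, 7 for *Ltf* in hi-77-/- GATA2, and 6 for both *Ctsg* and *Camp* in hi-77-/- 9aa-Ins. The last was the *Ltf* 5′ end in hi-77-/- 9aa-Ins, where replicate 1 had rank 41870 and the others 31351, 31743 and 30892.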

How the results depend on the processing

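Depth is unknown, and absence means absence from a list cut at a fixed length. Of the results for single genes and regions under the alternatives, 659 kept their direction and side of the threshold, 44 kept the direction but no longer passed, and 0 reversed. The numbers below count members or member regions called. Leaving out 1 library gave 8 to 10 regions called by presence for the deletion (8 with all libraries), 5 to 7 with GATA2 (5), 1 to 6 with 9aa-Ins (1) and 6 to 10 between the GATA2 and 9aa-Ins groups (6). By the rank test it gave 37 to 42 (41), 9 to 14 (15), 8 to 12 (11) and 15 to 19 (22), and at 5′ ends 2 to 3 (2), 1 (1), 2 to 4 (5) and 4 to 5 (5), in the same order.

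The presence count for 9aa-Ins was 6 without 9aa-Ins replicate 1, 3 without replicate 2 or 4, and 2 without replicate 3 or hi-77-/- empty replicate 4. Against GATA2 it was 10 without 9aa-Ins replicate 1. The GATA2 rank test gave 9 without GATA2 replicate 2 or 3. At 5′ ends the 9aa-Ins count was 2 without hi-77-/- empty replicate 1 or 3 or 9aa-Ins replicate 2, 3 or 4, and 3 without hi-77-/- empty replicate 4 or 9aa-Ins replicate 1. Window calls, 9 over all comparisons, were 10 to 14 without 1 replicate number, with 14 when replicate 1 was left out.

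With the full lists, presence gave 3 with GATA2, 5 with 9aa-Ins and 12 between these groups, and windows gave 14. With the most significant 50% of those peaks the presence counts were 1 with GATA2 and 2 between 9aa-Ins and GATA2, the rank test gave 26 for the deletion and 6 for GATA2, and windows gave 3. Requiring peaks to cover 50% of a region gave 6 by presence with 9aa-Ins and 13 between 9aa-Ins and GATA2, and using only peaks narrower than 1 kb gave 3 for 9aa-Ins. On a linear rank scale the rank test gave 6 for 9aa-Ins, and the 5′ ends gave 0 for GATA2 and 2 for 9aa-Ins. With 250 bp to each side the 9aa-Ins count at 5′ ends was 2, and windows of 25 kb gave 4. From the RefSeq start *Prtn3* also passed with 9aa-Ins (1.10, adjusted p = 0.044) and against GATA2 (1.03, adjusted p = 0.0221). The cause of these shifts was not tested.

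Replicate numbers did not pair the libraries: same-numbered deviations correlated at -0.0371 to 0.106 over 16 pairs, and 3 of 16 libraries matched best with their own number. With the replicate block the rank test called 41, 14, 11 and 20 regions and 2, 1, 4 and 5 5′ ends, in the order of comparisons above.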
